A study of Mus musculus with 46 samples.

Results

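The enzymes of the urea cycle, of arginine breakdown and of creatine synthesis were followed as a set of 9 genes in mouse kidney and liver: Cps1, Otc, Ass1, Asl, Arg1, Arg2, Oat, Gatm and Gamt. They were taken by gene symbol, and all 9 were found among the 17242 genes with a mean at 12 weeks and the 18531 genes with a mean at 18 months. The groups were castrated males (CasM), sham-operated females (ShamF) and sham-operated males (ShamM), all wild-type C57BL6 mice that had surgery at 8 weeks of age and were killed at 12 weeks or 18 months. Each ShamF and ShamM group held 3 libraries per tissue, and CasM held 6 per tissue at 12 weeks and 5 at 18 months. Polyadenylated RNA was sequenced, and 1 mean per group is deposited, so no spread between animals, number of animals sharing a direction or depth per library can be given. Levels are FPKM, which are scaled by transcript length, at 12 weeks and a normalized signal of unnamed unit at 18 months, and no level was compared across ages.

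The liver turns ammonia into urea. Cps1 and Otc make carbamoyl phosphate and citrulline in mitochondria, Ass1 and Asl convert citrulline to arginine in the cytosol, and Arg1 splits arginine into urea and ornithine. The kidney runs only part of this route: its proximal tubule takes up citrulline from blood and releases arginine through Ass1 and Asl. Arg2 is the mitochondrial arginase of extrahepatic tissue, and Oat moves the amino group of ornithine towards glutamate and proline. Creatine synthesis is split between organs, with Gatm making guanidinoacetate from arginine and glycine and Gamt methylating it to creatine.

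Promoter windows of RefSeq (build GRCm38.p6) were available for 5 of the 9 genes, namely Oat, Ass1, Gatm, Gamt and Otc. Each window begins 250 bases before the RefSeq start. The RefSeq starts of Ass1 and Gatm lie inside the gene as GENCODE annotates it, by 63 and 26 bases, so the bases shown are those upstream of both starts. They are given for Oat, Ass1 and Gatm, the members with a window on which the kidney results turn. Oat lies on the minus strand (chr7:132576399-132576648), Ass1 on the plus strand (chr2:31470020-31470206) and Gatm on the minus strand (chr2:122611304-122611527), and each is written on its gene's strand. Capitals mark the single match to the motifs searched.
Oat: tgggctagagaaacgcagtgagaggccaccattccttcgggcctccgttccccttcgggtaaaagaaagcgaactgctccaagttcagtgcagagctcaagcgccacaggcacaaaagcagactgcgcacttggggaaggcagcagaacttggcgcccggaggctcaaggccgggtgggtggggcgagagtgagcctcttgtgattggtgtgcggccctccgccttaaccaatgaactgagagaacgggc
Ass1: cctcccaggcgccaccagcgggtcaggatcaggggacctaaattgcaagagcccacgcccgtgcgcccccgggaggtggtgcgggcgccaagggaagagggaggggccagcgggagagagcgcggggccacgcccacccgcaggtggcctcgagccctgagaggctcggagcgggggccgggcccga
Gatm: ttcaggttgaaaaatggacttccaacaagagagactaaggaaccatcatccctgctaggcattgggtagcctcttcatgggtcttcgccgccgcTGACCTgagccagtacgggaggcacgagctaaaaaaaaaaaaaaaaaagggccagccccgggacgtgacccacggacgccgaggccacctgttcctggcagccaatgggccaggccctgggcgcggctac
Both strands of the 300-base windows, which add 50 bases after the RefSeq start, were searched for AGAACA (a repeat unit of sites for the androgen and glucocorticoid receptors), AGGTCA (a repeat unit of sites for several nuclear receptors), TTGCNNAA (C/EBP factors) and TATAAA (the TATA box). Gatm held AGGTCA, read on the opposite strand, 156 to 151 bases before the RefSeq start, and the other 4 windows held none of these letters. Over 32851 RefSeq windows of the same length, AGAACA occurred in 19%, AGGTCA in 16.3%, TTGCNNAA in 10.8% and TATAAA in 13.6%. GC content of the 250 bases before the RefSeq start was 60% for Oat, 75.6% for Ass1 and 59.2% for Gatm, against a median of 52.4% over all windows.

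The labelled tissues carried their defining markers. Of 8 proximal tubule markers, such as the phosphate carrier Slc34a1, all 8 had a mean of at least 1 in each kidney group, and their sum was 4888 to 5381 FPKM at 12 weeks. The corresponding sum in 12-week liver was 14.8 to 19.2 FPKM. The 8 hepatocyte markers summed to 20571 to 29058 FPKM in 12-week liver and to 82.6 to 179 FPKM in kidney, although Alb, the serum albumin gene, was listed at 0 in all 3 liver groups at 12 weeks. At 18 months, taking genes whose mean reached 1 in either group compared, the median was 0.13 higher in CasM and 0.11 higher in ShamF than in ShamM kidney on the log2(mean + 1) scale, and 0.12 and 0.14 higher in liver. The authors' log2 folds at that age do not carry this shift. For genes with means above 5, their median was 0.15 below the log2 ratio of means for CasM over ShamM in either tissue, and 0.13 and 0.21 below it for ShamF over ShamM in kidney and liver.

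The tissues held different parts of the pathway. In 12-week liver of ShamM, Arg1 at 1347 FPKM and Ass1 at 1199 FPKM were the most abundant members, followed by Asl at 441, Cps1 at 354, Oat at 301, Otc at 296 and Gamt at 244 FPKM. Gatm stood at 4.17 FPKM there and Arg2 at 0.0992 FPKM. In the kidneys of the same group, Ass1 led at 940 FPKM, followed by Asl at 190.1, Gatm at 187, Oat at 70.2 and Gamt at 26.4 FPKM. Arg2 was at 1.52 FPKM in these kidneys, and Arg1, Otc and Cps1 were at 0.218, 0.0693 and 0.0627 FPKM. These 3 were lower still in CasM kidneys, at 0.0718, 0.0187 and 0.0191 FPKM. The kidney mean of Gatm was thus 44.8 times its liver mean, while the liver mean of Gamt was 9.27 times its kidney mean. At 18 months the same 2 ratios in ShamM were 162 and 7.35.

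**Figure D1:**
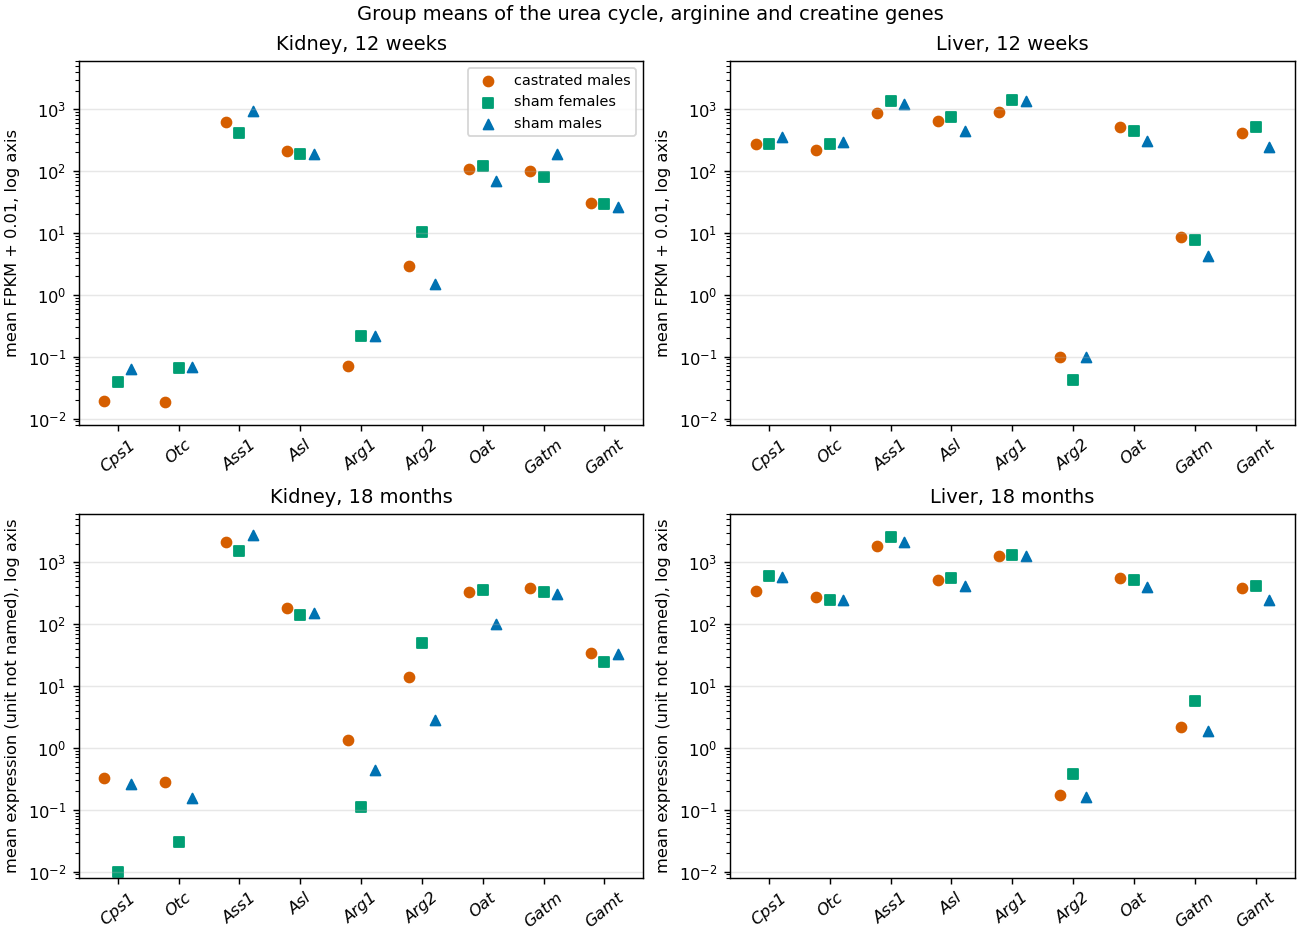
Group means of the 9 genes on a log axis, in FPKM with 0.01 added at 12 weeks and in the unnamed expression unit at 18 months. Points are castrated males, sham females and sham males, 1 mean per group with no spread. Cps1, Otc and Arg1 stand above 200 in every liver group and below 2 in every kidney group, while Gatm is at 80.3 or more in every kidney group and below 9 in every liver group.

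Arg2 and Oat, which act in sequence on arginine and ornithine, were the members that rose in kidney at 18 months. Arg2 (mm10 chromosome 12, 79130777 to 79156301, plus strand) had means of 14.1 in CasM, 49.3 in ShamF and 2.81 in ShamM. The 3 groups stood far apart, with CasM between the others and 5.03 times the ShamM mean. In the authors' deposited table, Arg2 rose in CasM against ShamM with a log2 fold of 2.19 (implied SE 0.259, adjusted p = 1.83e-15, DESeq2), and was higher in ShamF than in ShamM by 4.02 (implied SE 0.273, adjusted p = 1.87e-46). Castration did not bring Arg2 to the female mean: the authors' deposited table gives CasM over ShamF a log2 fold of -1.82 (implied SE 0.265, adjusted p = 1.66e-09, DESeq2). The SE is implied by the authors' fold and p-value, on the assumption that the test statistic was normal. Arg2 overlaps the antisense gene Gm48780 and the end of Vti1b on the opposite strand, and no source used here states whether counting used strand.

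Oat (mm10 chromosome 7, 132557478 to 132576398, minus strand) had 18-month kidney means of 327 in CasM, 362 in ShamF and 101 in ShamM. CasM and ShamF lay close together, each above 3 times the ShamM mean. In the authors' deposited table, Oat rose in CasM against ShamM with a log2 fold of 1.56 (implied SE 0.117, adjusted p = 5.76e-38, DESeq2) and was higher in ShamF than in ShamM by 1.72 (implied SE 0.125, adjusted p = 3.05e-40). Between CasM and ShamF the authors' log2 fold for Oat was -0.15 with an implied 95% interval of -0.34 to 0.03 and an adjusted p of 0.390 (DESeq2). In the annotation used here, Fgfr2 spans the Oat locus on the same strand.

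The order of the groups was the same at 12 weeks. Arg2 averaged 2.92 FPKM in CasM, 10.5 FPKM in ShamF and 1.52 FPKM in ShamM kidneys. Oat averaged 107 FPKM in CasM, 123 FPKM in ShamF and 70.2 FPKM in ShamM. At this age the authors' deposited tables hold a single comparison per gene and tissue, chosen by a rule that is not stated, and for both genes that comparison was CasM against ShamF. Arg2 was lower in CasM than in ShamF by 1.85 on the log2 scale in the authors' deposited table (a log2 fold of -1.85, adjusted p = 0.00358, in the column layout of Cuffdiff), and Oat was at -0.19 (adjusted p = 0.804). Whether castration or sex moved Arg2 and Oat at 12 weeks is not listed.

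**Figure D2:**
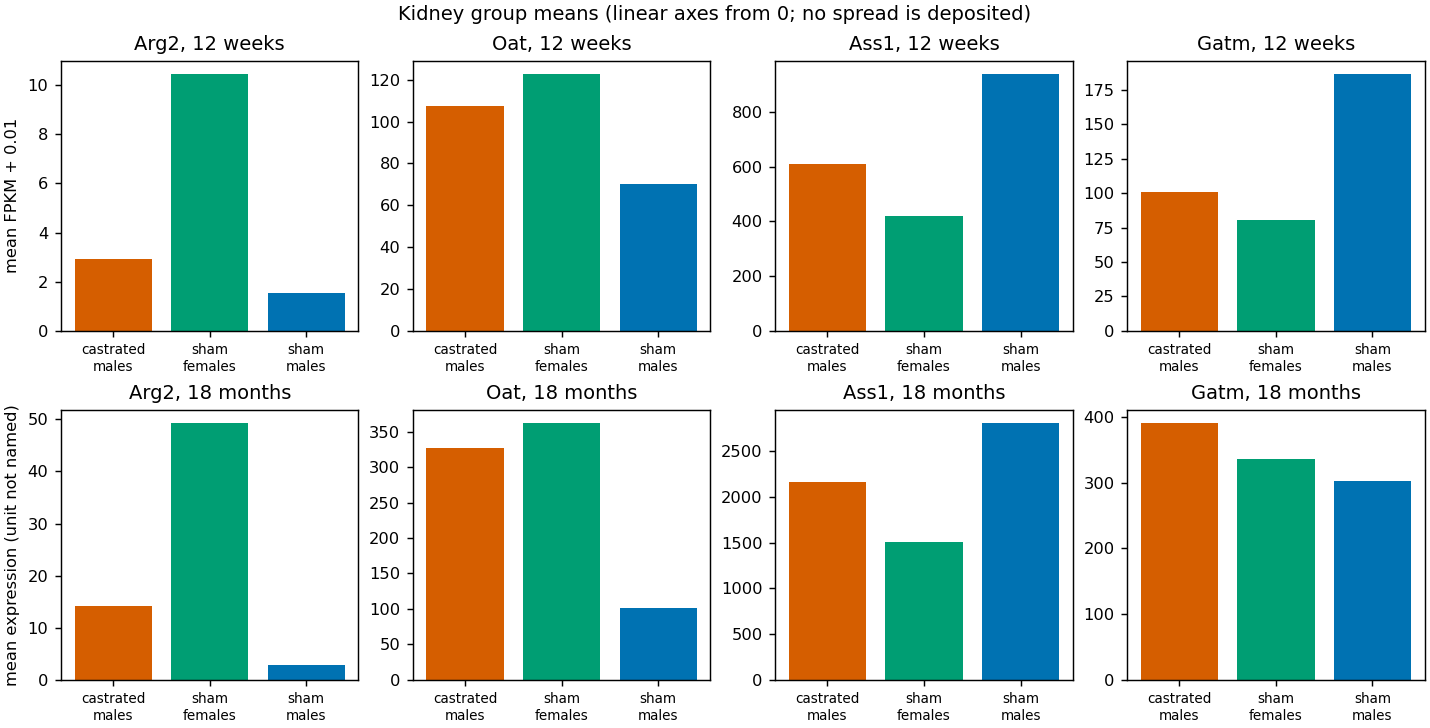
Kidney group means of Arg2, Oat, Ass1 and Gatm in castrated males, sham females and sham males, at 12 weeks (upper row, FPKM with 0.01 added) and 18 months (lower row, unnamed expression unit). Axes are linear and start at 0, and each bar is 1 deposited group mean with no spread. Castrated males lie between the sham groups for Arg2, Oat and Ass1 at both ages, and for Gatm at 12 weeks only.

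Ass1, which joins citrulline to aspartate and was the most abundant member in kidney at 12 weeks, went the other way. In 18-month kidney Ass1 (mm10 chromosome 2, 31470207 to 31520672, plus strand) had means of 2168 in CasM, 1504 in ShamF and 2809 in ShamM, so that CasM again lay between the sham groups. In the authors' deposited table Ass1 fell in CasM against ShamM with a log2 fold of -0.52 (implied SE 0.122, adjusted p = 0.000242, DESeq2), and was lower in ShamF than in ShamM by a log2 fold of -1.03 (implied SE 0.0872, adjusted p = 6.13e-30). CasM stayed above ShamF in the authors' deposited table by 0.52 (implied SE 0.123, adjusted p = 0.000965, DESeq2). At 12 weeks Ass1 averaged 611 FPKM in CasM, 418 FPKM in ShamF and 940 FPKM in ShamM kidneys, and its listed comparison was sex, with a log2 fold of -1.17 for ShamF over ShamM in the authors' deposited table (adjusted p = 0.000476, Cuffdiff layout).

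Asl, the lyase that releases arginine in the next step, differed little between CasM and ShamM. Its 18-month kidney means were 179 in CasM, 138 in ShamF and 152 in ShamM. The authors' log2 fold of Asl for CasM over ShamM was 0.08 with an implied 95% interval of -0.18 to 0.34, so that its upper bound lies below the lower bounds of Arg2 at 1.68 and Oat at 1.33. CasM exceeded ShamF for Asl by 0.36 in the authors' deposited table (implied SE 0.122, adjusted p = 0.0423, DESeq2). For ShamF over ShamM the log2 fold of Asl was -0.28 (implied 95% interval -0.54 to -0.02, adjusted p = 0.150, DESeq2). At 12 weeks Asl averaged 214 FPKM in CasM, 188 FPKM in ShamF and 190.1 FPKM in ShamM kidneys, and its listed comparison, CasM over ShamF, was at a log2 fold of 0.19 with an adjusted p of 0.430 (Cuffdiff layout).

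Gatm, the amidinotransferase that commits arginine to creatine, fell in 12-week kidney. It averaged 101 FPKM in CasM, 80.3 FPKM in ShamF and 187 FPKM in ShamM, with both CasM and ShamF near the same lower level. The authors' deposited table lists castration for Gatm, with a log2 fold of -0.89 and an adjusted p of 0.000476 (Cuffdiff layout). In 18-month kidney the order was different, with means of 391 in CasM, 336 in ShamF and 303 in ShamM. The authors' log2 fold of Gatm at 18 months was 0.22 for CasM over ShamM (implied 95% interval -0.19 to 0.62, adjusted p = 0.536, DESeq2) and 0.01 for ShamF over ShamM (implied 95% interval -0.77 to 0.79, adjusted p = 0.991). The interval for castration excludes a fall of the size seen at 12 weeks, but the ages were processed separately and the difference between them was not tested. Gamt, the methyltransferase of the next step, had 18-month kidney means of 34.0 in CasM, 24.9 in ShamF and 33.2 in ShamM. It was lower in ShamF than in ShamM by a log2 fold of -0.54 in the authors' deposited table (implied SE 0.175, adjusted p = 0.0157, DESeq2), and its castration fold was -0.11 (implied 95% interval -0.51 to 0.30).

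In number, 3 of the 9 members passed the authors' adjusted p threshold of 0.05 for castration in 18-month kidney, Arg2 and Oat higher and Ass1 lower, where 22.7% of all 17872 genes tested passed. For ShamF against ShamM 5 of 9 passed, against 16.8% of all genes, and they were Arg2 and Oat, higher, and Ass1, Gamt and Cps1, lower. For CasM against ShamF 3 of 9 passed, against 7.14%, with Ass1 and Asl higher and Arg2 lower. A limit of 1.5-fold on mean + 1 would end the castration call of Ass1, the sex calls of Gamt and Cps1 and the CasM against ShamF calls of Ass1 and Asl. The castration and sex comparisons share the ShamM libraries. The median difference over the 9 members for castration was 0.24 on the log2(mean + 1) scale, with a range of -0.37 to 1.99. Over the 7 members whose mean reached 1 it was 0.37, beside 0.13 for all genes whose mean reached 1. In 12-week kidney, Gatm was the single member listed for castration, and 48.6% of the 5598 genes listed for it passed. Ass1 was the single member listed for sex, where 81.4% of 3200 listed genes passed. Of 7 members listed for CasM against ShamF, Arg2 passed, against 5.14% of 8444 listed genes, while Cps1, Otc and Arg1 carried a p of 1. Gamt, one of the 7, averaged 31.0 FPKM in CasM, 28.9 FPKM in ShamF and 26.4 FPKM in ShamM.

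Marker sums of tubule segments also differed between the groups in 18-month kidney. The 8 markers of nephron segments beyond the proximal tubule, such as Umod and Slc12a3, summed to 2775 in CasM, 4034 in ShamF and 1852 in ShamM. The highest single marker alone gave 1585, 2561 and 1091 of these sums. Of the 8, 5 rose and 0 fell in CasM against ShamM. The 8 proximal tubule markers summed to 6903 in CasM, 5332 in ShamF and 6990 in ShamM, with 1 rising and 4 falling. The sums at 12 weeks differed less, at 1082, 1125 and 1178 FPKM for the other segments in CasM, ShamF and ShamM. ShamM was highest there, whereas Arg2 and Oat were lowest in ShamM at that age. The part of these shifts in the values of Arg2, Oat and Ass1 was not tested. In whole tissue, fewer cells of a type and less RNA per cell cannot be told apart.

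**Figure D3:**
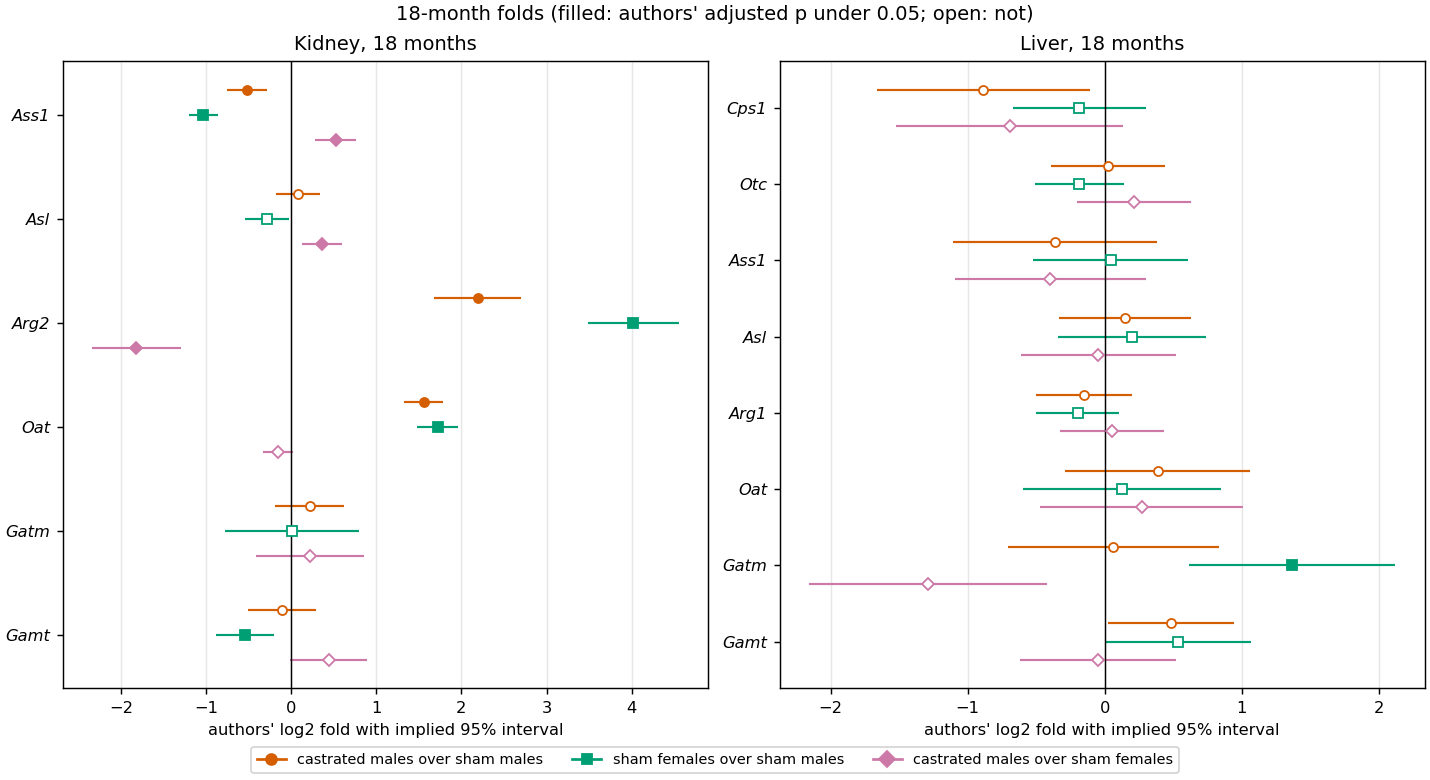
Authors' log2 folds at 18 months for members above trace level in kidney (left) and liver (right), with implied 95% intervals. Colours mark castrated males over sham males, sham females over sham males and castrated males over sham females, and filled symbols have an adjusted p under 0.05. Kidney Arg2, Oat and Ass1 are filled for castration, whereas no liver gene is.

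Cps1, Otc and Arg1, the members that mark hepatocytes, were at trace level in kidney. In 18-month kidney Cps1 had means of 0.324 in CasM, 0.01 in ShamF, where it is listed at the table's minimum, and 0.257 in ShamM. Otc had 0.276, 0.03 and 0.153, and Arg1 had 1.36, 0.11 and 0.443, in CasM, ShamF and ShamM. All 3 genes were highest in CasM and lowest in ShamF. The 6 erythroid markers, mostly globin genes, had the same order, with sums of 5247 in CasM, 2726 in ShamF and 3461 in ShamM, and 3 rose and 0 fell in CasM against ShamM. The call of Cps1 as lower in ShamF than ShamM (adjusted p = 0.0228 by DESeq2 in the authors' deposited table) rests on these means. Of 4 other hepatocyte genes looked at in these kidneys after the values were seen, Alb, Apoa1 and Serpina1c had the same order and Fgb did not. Alb had 65.1 in CasM, 12.8 in ShamF and 21.7 in ShamM, and the apolipoprotein gene Apoa1 had 14.0, 1.29 and 4.88. Fgb, a fibrinogen chain, had 7.39 in CasM, 2.96 in ShamF and 2.08 in ShamM. As a percentage of the liver mean of the same arm, kidney Arg1 stood at 0.106% in CasM, 0.00850% in ShamF and 0.0345% in ShamM, and kidney Alb at 0.135%, 0.0257% and 0.0479%. Alb, Apoa1, Fgb and Serpina1c are part of the list of 8 hepatocyte markers, which did not share 1 order in kidney. The highest marker in ShamM, at 98.0, was none of these 4, and no marker in CasM exceeded 65.1. By their means, 6 of the 8 were higher in CasM than in ShamM, while 2 rose and 1 fell by the authors' test. The sum of the 8 was 191 in CasM, 118 in ShamF and 158 in ShamM, and none was listed at 0. The part of the erythroid and hepatocyte markers in the kidney values of Cps1, Otc and Arg1 was not tested. The 8 neutrophil markers summed to 6.29 in CasM, 6.56 in ShamF and 8.18 in ShamM in these kidneys.

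In 12-week liver the members that rose after castration were Oat, Asl and Gatm. Oat averaged 520 FPKM in CasM, 444 FPKM in ShamF and 301 FPKM in ShamM, with a log2 fold of 0.79 for castration in the authors' deposited table (adjusted p = 0.0361, Cuffdiff layout). Asl averaged 641 FPKM in CasM, 742 FPKM in ShamF and 441 FPKM in ShamM, with a log2 fold of 0.54 (adjusted p = 0.0284, Cuffdiff layout, authors' deposited table). Gatm averaged 8.66 FPKM in CasM, 7.56 FPKM in ShamF and 4.17 FPKM in ShamM, with a log2 fold of 1.06 (adjusted p = 0.000856, Cuffdiff layout, authors' deposited table), opposite in sign to its kidney change at this age. Each of these genes was higher in both CasM and ShamF than in ShamM. These were 3 of the 4 members listed for castration, against 24.9% of 8479 listed genes that passed, and the remaining member, Ass1, had means of 878 FPKM in CasM, 1357 FPKM in ShamF and 1199 FPKM in ShamM and a log2 fold of -0.45 (adjusted p = 0.251, Cuffdiff layout). The Asl call would end at 1.5-fold, and those of Oat and Asl at an adjusted p under 0.01.

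On the log2(mean + 1) scale Gamt had the widest sex difference of the 9 members in 12-week liver, with means of 412 FPKM in CasM, 507 FPKM in ShamF and 244 FPKM in ShamM. The authors' deposited table lists Gamt for sex, with a log2 fold of 1.05 for ShamF over ShamM (adjusted p = 0.000856, Cuffdiff layout). All 628 genes listed for sex in this liver table passed the threshold, a background of 100%, so the call of Gamt adds nothing to its listing. Arg1 averaged 904 FPKM in CasM, 1422 FPKM in ShamF and 1347 FPKM in ShamM, and was lower in CasM than in ShamF by a log2 fold of -0.65 in the authors' deposited table (adjusted p = 0.0124, Cuffdiff layout). It was 1 of 4 members listed for that comparison, against 4.71% of 8135 listed genes. Cps1 averaged 274 FPKM in CasM, 272 FPKM in ShamF and 354 FPKM in ShamM, and Otc averaged 217, 269 and 296 FPKM, with neither passing the comparison listed for it. Arg2 was at 0.0996 FPKM in CasM, 0.0424 FPKM in ShamF and 0.0992 FPKM in ShamM, with a p of 1.

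Hepatocyte markers had lower summed levels in the same livers. Their sum was 20571 FPKM in CasM, 24368 FPKM in ShamF and 29058 FPKM in ShamM, and 3 of the 4 listed for castration fell. Of 10 markers of hepatocytes around the portal vein, where urea synthesis is concentrated, 2 rose and 2 fell among 4 listed for castration. Of 10 markers of hepatocytes around the central vein, where Oat and glutamine synthetase are concentrated, 1 was listed for castration and it did not pass. The summed central list was 5555 FPKM in CasM, 4229 FPKM in ShamF and 4559 FPKM in ShamM, of which Cyp2e1 gave 4620, 3164 and 3610 FPKM. Macrophage markers summed to 135 FPKM in CasM, 234 FPKM in ShamF and 85.9 FPKM in ShamM, with 4 of 8 listed for castration and all 4 higher in CasM. The part of any of these lists in the members' values was not tested.

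At 18 months none of the 9 members passed for castration in liver by the authors' DESeq2 test, against 2.09% of 16883 genes, and 2 had an unadjusted p under 0.05. These were Cps1 and Gamt. Cps1 had means of 348 in CasM, 593 in ShamF and 584 in ShamM, and a log2 fold of -0.89 for castration (implied 95% interval -1.66 to -0.11, adjusted p = 0.424, DESeq2). Gamt had means of 380 in CasM, 407 in ShamF and 244 in ShamM, close to the 12-week order, with a log2 fold of 0.48 (implied 95% interval 0.02 to 0.95, adjusted p = 0.521, DESeq2). Oat had means of 559 in CasM, 509 in ShamF and 395 in ShamM and Asl had 518, 554 and 419, so the order of these genes relative to ShamM was that of 12 weeks, without passing the test. Arg1 was level, with means of 1284 in CasM, 1294 in ShamF and 1286 in ShamM. Its log2 fold for castration was -0.15 with an implied 95% interval of -0.50 to 0.20. Ass1 had means of 1827 in CasM, 2563 in ShamF and 2152 in ShamM, Otc had 275, 249 and 245, and Arg2 stayed at trace level with 0.174, 0.377 and 0.160. The Oat interval in liver was wider than in kidney, with an implied SE for castration of 0.117 in kidney and 0.345 in liver.

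Gatm was the member that passed for ShamF against ShamM in 18-month liver, 1 of 9 against 9.78% of 16659 genes. Its means were 2.21 in CasM, 5.66 in ShamF and 1.87 in ShamM, with CasM near ShamM. The log2 fold for ShamF over ShamM was 1.37 (implied SE 0.384, adjusted p = 0.00790, DESeq2, in the authors' deposited table). For CasM over ShamF the log2 fold of Gatm was -1.29 (implied 95% interval -2.16 to -0.42), but its adjusted p was 0.152, and none of the 9 members passed that comparison, against 1.13% of 16971 genes, while 1 had an unadjusted p under 0.05 by DESeq2. Macrophage markers had the same order as Gatm in these livers, summing to 179 in CasM, 523 in ShamF and 118 in ShamM. Of these 8 markers, 5 were higher in ShamF than in ShamM. In 12-week liver the orders differed, with Gatm highest in CasM and the macrophage sum highest in ShamF. The part of these markers in the Gatm result was not tested. For liver Gatm, castrated males stood near sham females at 12 weeks and near sham males at 18 months, a contrast that was not tested.

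Enzymes and carriers around these steps also changed in 18-month kidney. Among 14 measured genes that supply the urea cycle, 4 rose and 2 fell in CasM against ShamM. Glul, which makes glutamine from ammonia, rose to 637 in CasM, against 769 in ShamF and 316 in ShamM, with a log2 fold of 0.87 for castration (adjusted p = 2.87e-06, DESeq2, authors' deposited table). Glud1, which releases ammonia from glutamate, rose to 271 in CasM, against 250.2 in ShamF and 194 in ShamM, and the mitochondrial glutamate carrier Slc25a22 rose to 14.6 in CasM, against 11.1 in ShamF and 9.86 in ShamM. Among 8 genes of proline and ornithine exchange, 1 rose and 1 fell. Prodh2, which oxidizes hydroxyproline, rose to 169 in CasM, against 90.9 in ShamF and 79.7 in ShamM, so that CasM stood above both sham groups, and its log2 fold over ShamF was 0.90 (adjusted p = 3.50e-09, DESeq2, authors' deposited table). Hoga1, an aldolase further along hydroxyproline breakdown, fell to 114 in CasM, against 112 in ShamF and 140.5 in ShamM.

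Of 15 genes for arginine transport and other arginine uses, 3 rose and 3 fell in 18-month kidney. Ddah1, which hydrolyses the nitric oxide synthase inhibitor asymmetric dimethylarginine, fell to 75.0 in CasM, against 66.3 in ShamF and 100.4 in ShamM, with a log2 fold of -0.60 (adjusted p = 9.47e-14, DESeq2, authors' deposited table). At 12 weeks Ddah1 likewise fell to 28.2 FPKM in CasM, against 23.9 FPKM in ShamF and 66.8 FPKM in ShamM kidneys. Agxt2, a mitochondrial aminotransferase that also acts on dimethylarginines, fell to 67.1 in CasM, against 35.5 in ShamF and 78.9 in ShamM at 18 months. The related gene Ddah2 rose to 18.0 in CasM, against 16.1 in ShamF and 11.7 in ShamM. Among 6 measured genes of creatine transport and phosphorylation, 2 rose and 2 fell. The cytosolic creatine kinase Ckb rose to 124 in CasM, against 129 in ShamF and 62.2 in ShamM, and the mitochondrial kinase Ckmt1 to 55.4 in CasM, against 59.0 in ShamF and 32.6 in ShamM. Slc16a12, a creatine carrier, fell to 32.0 in CasM, against 29.2 in ShamF and 39.9 in ShamM, and at 12 weeks to 16.3 FPKM in CasM, against 10.8 FPKM in ShamF and 27.6 FPKM in ShamM. The counts of the 4 lists, together 10 higher and 8 lower of 43 measured, stand beside 22.7% of all genes.

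At 12 weeks 12 of the 43 measured genes of these lists were listed for castration in kidney, of which 3 rose and 6 fell, beside 48.6% called of all genes listed. In liver 13 were listed, of which 3 rose and 3 fell, beside 24.9%. In kidney, the aspartate and glutamate carrier Slc25a13 fell to 18.9 FPKM in CasM, against 16.5 FPKM in ShamF and 29.6 FPKM in ShamM, and Got1, the cytosolic aspartate aminotransferase, to 31.5 FPKM in CasM, against 31.1 FPKM in ShamF and 45.0 FPKM in ShamM. Hoga1 fell to 97.7 FPKM in CasM, against 90.9 FPKM in ShamF and 131.7 FPKM in ShamM, and Pycrl, a pyrroline-5-carboxylate reductase of proline synthesis, to 16.0 FPKM in CasM, against 14.8 FPKM in ShamF and 20.9 FPKM in ShamM. Slc7a9, a light chain of the transporter for cystine and dibasic amino acids, rose to 116 FPKM in CasM, against 108 FPKM in ShamF and 73.8 FPKM in ShamM. In liver, the mitochondrial ornithine carrier Slc25a15 fell to 48.5 FPKM in CasM, against 54.7 FPKM in ShamF and 72.6 FPKM in ShamM, and the mitochondrial aminotransferase Got2 to 80.4 FPKM in CasM, against 90.6 FPKM in ShamF and 130 FPKM in ShamM. Slc3a1, the heavy chain that pairs with Slc7a9, fell to 5.31 FPKM in CasM, against 8.30 FPKM in ShamF and 16.2 FPKM in ShamM, with a log2 fold of -1.61 (adjusted p = 0.000856, Cuffdiff layout, authors' deposited table). Aldh4a1, the dehydrogenase that completes the route from ornithine or proline to glutamate, rose to 93.0 FPKM in CasM, against 89.7 FPKM in ShamF and 63.0 FPKM in ShamM. In 18-month liver 0 genes of the 4 lists passed for castration by DESeq2, while 3 had an unadjusted p under 0.05.

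The patterns of the members were matched to other genes by Pearson's r over 12 values, the 3 arms in each age and tissue on the log2(mean + 1) scale, centred within age and tissue. For Arg2 the closest were the conjugate exporter Abcc3 with r = 0.97, the transcription factor Foxq1 with r = 0.96 and the acyl-CoA thioesterase Acot7 with r = 0.95. For Oat they included Tm6sf2 and Kng2, each with r = 0.95, and for Ass1 Shmt2 and Kcnk5 with r = 0.95 and 0.93. For Gatm they were Kdr, Slc16a10 and Sult1d1 with r = 0.95, 0.94 and 0.92, and for Gamt Dcxr, Coro7 and Plgrkt with r = 0.97, 0.96 and 0.94. Arg1 had no match as close, its best being the globin gene Hbb-bt with r = 0.81, followed by Prdx4 with 0.79 and Ube2l6 with 0.74. The widest span of Arg1 was in 18-month kidney, where its means were 0.11 to 1.36, and the liver means of Arg2 were all at 0.377 or less, so for these genes r rests largely on trace means or on 1 tissue. These values describe 12 group means that share libraries, and candidates had to reach 5 in a group of every age and tissue and to vary by no less than 0.5 of the member's SD. That left 310 candidates for Arg2 and 1480 to 4020 for the others.

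The compounds of these pathways were covered in part by the metabolite tables, which give 1 mean relative abundance per group and no test. Arginine in 18-month kidney was 0.139 in CasM, 0.382 in ShamF and 0.402 in ShamM, and in 18-month serum 1.39 in CasM, 2.24 in ShamF and 2.43 in ShamM. CasM was thus low in both, at 0.345 and 0.572 of the ShamM mean. At 12 weeks kidney arginine was 0.556 in CasM, 0.720 in ShamF and 0.568 in ShamM, and serum arginine in CasM was 1.45 times that in ShamM, so the low arginine of CasM in kidney and serum was not seen at 12 weeks. Ornithine in 18-month liver was 0.258 in CasM, 0.575 in ShamF and 0.285 in ShamM, whereas in serum its CasM mean was 1.08 times the ShamM mean at 18 months and 1.06 times at 12 weeks. Among all 985 compounds of the 18-month kidney table, 26.5% differed by at least 1.5-fold between CasM and ShamM, and among 868 of 18-month serum 29.95% did.

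Asymmetric dimethylarginine, the substrate of Ddah1, was 0.133 in CasM, 0.140 in ShamF and 0.0917 in ShamM in 18-month kidney. In 18-month liver, 2 entries under different names had CasM means 2.17 and 1.62 times the ShamM means, and ShamF means 1.83 and 1.56 times. Among all 954 compounds of that liver table, 27.4% differed by at least 1.5-fold between CasM and ShamM. In 18-month serum asymmetric dimethylarginine was 0.151 in CasM, 0.183 in ShamF and 0.174 in ShamM. Its CasM mean in 12-week serum was 1.14 times the ShamM mean. Creatine was level in kidney, where the CasM mean was 0.978 times the ShamM mean at 12 weeks and 1.01 times at 18 months. In 18-month liver creatine was 1.501 in CasM, 0.725 in ShamF and 1.87 in ShamM, with ShamF lowest. Creatinine in serum was 1.38 times the ShamM mean in CasM and 1.37 times in ShamF at 12 weeks, and 1.41 and 1.62 times at 18 months. In kidney at 18 months it was 0.268 in CasM, 0.204 in ShamF and 0.358 in ShamM. Citrulline was matched only as D-citrulline in 12-week serum, where CasM was 0.976 times and ShamF 1.70 times the ShamM mean. Kidney glutamine in CasM was 0.569 times the ShamM mean at 12 weeks and 0.712 times at 18 months, and 1.29 times in 18-month liver. Kidney proline in CasM was 1.21 times the ShamM mean at 12 weeks and 1.42 times at 18 months, and serum proline 0.744 and 0.885 times. No entry was matched under the names searched for urea, argininosuccinic acid, guanidinoacetate, homoarginine or phosphocreatine.

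**Figure D4:**
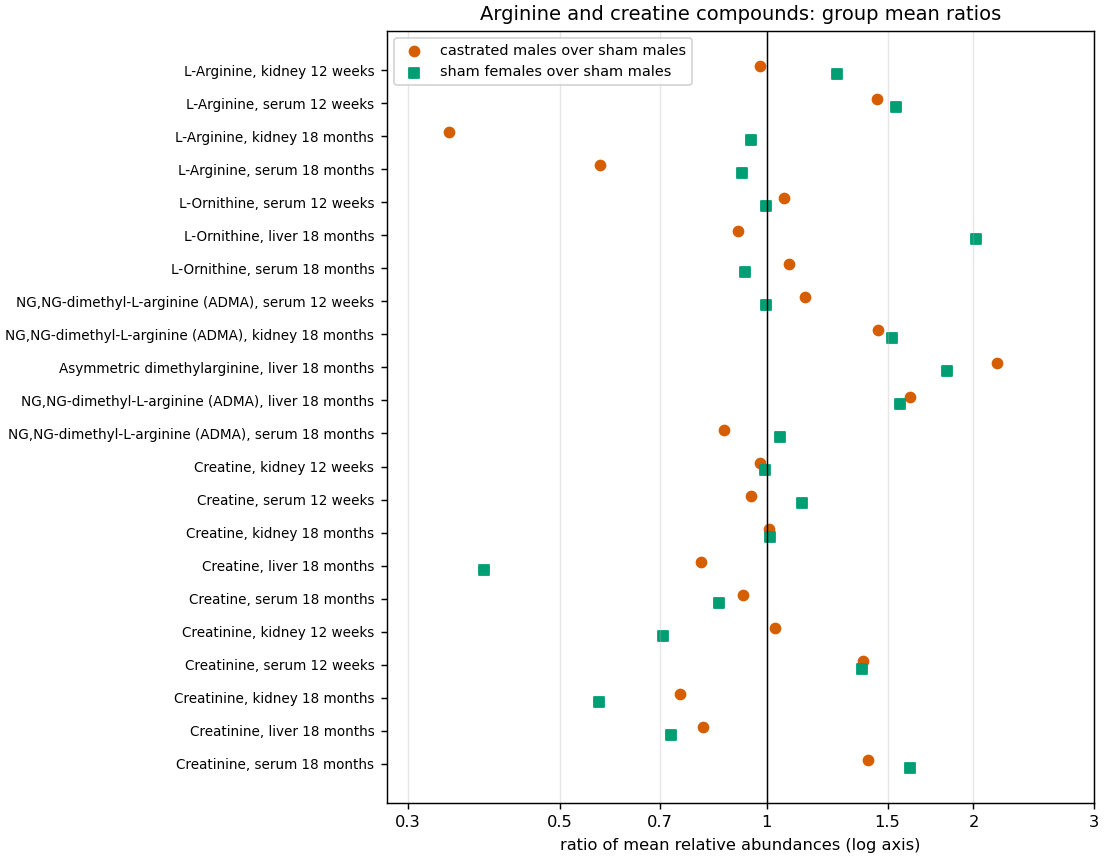
Ratios of group mean relative abundances for arginine, ornithine, asymmetric dimethylarginine, creatine and creatinine, castrated males over sham males (circles) and sham females over sham males (squares), on a log axis. Each row is 1 compound in 1 tissue and age, with no spread deposited. Arginine of castrated males lies at 0.345 in 18-month kidney and 0.572 in 18-month serum.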

How the data were processed

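RNA of kidney and liver was measured in 46 libraries of 12 groups by age, tissue and arm. The submitters' processing notes name the tools HISAT2, SAMtools and Cufflinks and the build mm10; roles, versions and settings are not stated. The authors deposited group mean FPKM at 12 weeks, to which, from the values, 0.01 had been added, and a normalized expression signal of unnamed unit at 18 months. The comparison tables deposited by the authors hold p-values, adjusted p-values and log2 folds, from DESeq2 at 18 months per the file headers and in the Cuffdiff layout at 12 weeks. The 18-month log2 folds, judged against the group means, are the group named second over the group named first, and were turned round here. The metabolite tables deposited by the authors hold a mean signal (relative abundance) per group.

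The call threshold was 0.05 on the adjusted p that the authors set over their whole table. Differences were computed from group means as log2(mean + 1) with pandas 2.3.3 and SciPy 1.17.1. The 95% interval is the authors' log2 fold ± the normal quantile times the implied SE. Depth per library is unknown, and no test across libraries could be made. The labels do not say whether replicates are separate animals, so the authors' p-values measure the spread between samples. The members, the 4 pathway lists, the 8 marker lists and the rules were chosen with earlier results of these data known. The text names all members, and up to 3 called genes of each pathway list per age and tissue with a mean of at least 5 and the widest castration difference. Benjamini-Hochberg adjustment, used for an alternative, was tested on simulated data. The pattern matching was checked with a planted noisy copy of the Oat pattern, which ranked first. The implied SE and the set of hepatocyte genes compared between kidney and liver were added after the data were seen. Gene positions are from GENCODE vM21. Alternatives covered the threshold, unadjusted p, a fold limit, a filter on low means, the pseudocount, centring and the authors' folds. Some of the genes matched by pattern are not reported here.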

Additional observations from a re-analysis of the deposited data

How the results depend on the processing

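All values rest on group means and on the authors' tests, so no library could be left out and depth sets no limit that can be stated. No paired analysis was possible because the deposited columns are group means that carry no replicate number. Other normalizations of library values could not be run for the same reason. At an adjusted p under 0.01, the count of members called was 1 instead of 3 for castration and 0 instead of 1 for CasM against ShamF in 12-week liver, and 3 instead of 5 for ShamF against ShamM in 18-month kidney, where Cps1 and Gamt were lost. The same threshold ended the CasM against ShamF call of Asl in 18-month kidney. A further limit of 1.5-fold on mean + 1 left 3 of those 5, and left Arg2 alone, 1 of 3, for CasM against ShamF in 18-month kidney. It also ended the castration calls of Ass1 in 18-month kidney and of Asl in 12-week liver. By the authors' unadjusted p under 0.05, the counts were 5 for CasM against ShamF in 18-month kidney and, in 18-month liver, 2 for castration, 2 for ShamF against ShamM and 1 for CasM against ShamF, instead of 3, 0, 1 and 0. For ShamF against ShamM in 18-month kidney the count was 7 instead of 5. Readjusting over genes whose mean reached 1 kept the 6 counts at 18 months within 1.5 times. That filter leaves out kidney Cps1, with means of 0.01 in ShamF and 0.257 in ShamM, so its call for ShamF against ShamM is not kept. With a pseudocount of 0.1, with none, centred on the median gene, or taken as the authors' folds, the 20 called differences kept their direction. Among differences without a call, including those not listed at 12 weeks, 9 of 88 changed sign on centring. Among those listed but not called, 6 of 52 changed sign with the authors' folds.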
